A study of Mus musculus with 10 samples.

Results

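CD4 T cells without Foxp3 protein were compared by whether they carried CD25 at the surface. CD25 (encoded by Il2ra) is the alpha subunit of the receptor for IL-2, and Foxp3 is the transcription factor of the regulatory T cell lineage. The comparison used 2 of the 10 arrays of the series, those labelled as untreated GFP-negative CD25-positive CD4 cells (CD25pos) and untreated GFP-negative CD25-negative CD4 cells (CD25neg), and took the deposited log2 level of each gene in CD25pos minus that in CD25neg. Both came from homozygous Foxp3(gfp/gfp) female mice, whose knock-in allele joins green fluorescent protein (GFP) to Foxp3, so that a cell without fluorescence was sorted as lacking Foxp3 protein. The mice were 6 to 8 weeks old and, per the labels, C57BL/6 after 8 to 10 backcrosses out of 129/Sv. Lymph node and spleen were pooled, and cells were enriched with magnetic beads and then sorted by flow cytometry. The labels do not give the number of mice behind an array, and they do not say whether untreated mice had an injection of vehicle.

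There was 1 array in each group. No difference between CD25pos and CD25neg therefore has a replicate check, and all values below are descriptions without a test. The remaining arrays appear only as reference levels. They were CD25pos cells of mice that had 4 injections of IL-2 within 24 h, each of 50 ng per g, and were taken 30 min after the last (CD25pos_IL2), GFP-positive cells of Foxp3(gfp/gfp) mice (GFPfoxp3), which hold Foxp3, and GFP-positive cells of Foxp3(gfpko/wt) females (GFPko), in which the read allele makes GFP in place of Foxp3. The Foxp3(gfpko/wt) mice had 5 backcrosses per the labels, fewer than the Foxp3(gfp/gfp) mice. IL-2-treated counterparts of the GFP-positive groups and transduced CD4 cells made up the other arrays.

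CD25 joins the beta and gamma chains of the IL-2 receptor into a receptor of high affinity, which signals through STAT5. Regulatory T cells carry CD25 constantly, whereas conventional CD4 T cells acquire it for a time after their antigen receptor is engaged. A CD4 cell that has CD25 but no Foxp3 is therefore usually regarded as a recently activated effector or memory cell, while the CD25-negative cells of young unmanipulated mice hold mainly naive cells.

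The labels were first set against the genes used for sorting and against markers of cell types. Il2ra was at a log2 level of 7.91 in CD25pos and 3.45 in CD25neg, and at 5.71 in CD25pos and 3.96 in CD25neg with its second probe set. This gene defined the sort, so its difference is not a finding. Foxp3 was at 3.90 in CD25pos and 2.45 in CD25neg, against 10.86 in GFPfoxp3. The CD25pos value lay above the median of 3.07 over all probe sets of that array, and the CD25neg value below that array's median of 3.06, which gives a fold of at least 1.8. Counts of genes past 2-fold use the measured difference, and where such a bound falls under 2 the count without that gene is given beside it. Cd4 was alike at 10.45 in CD25pos and 10.60 in CD25neg. None of the 12 measured genes of T cell identity differed 2-fold, against 7.25% of all genes. With 12 genes a count of 0 lies close to that share. The median difference of this list was -0.10. The extremes were Cd3e, a chain of the T cell receptor complex, at 12.03 in CD25pos and 11.84 in CD25neg, and Cd247, the zeta chain of that complex, with a difference of -0.77.

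Markers of other cells were mostly dim on both arrays. The B cell genes Cd79a and Pax5, the myeloid genes Cd14, Itgam and Cd68, the natural killer (NK) cell gene Ncr1 and the platelet gene Pf4 stayed below the array median on all 10 arrays, and Cd8a was at 3.15 in CD25pos and 3.16 in CD25neg. Of 11 measured B cell genes, Cd22 was at 6.67 in CD25pos and 5.46 in CD25neg, and Bank1 was at 3.94 in CD25pos and 5.04 in CD25neg. These made 9.09% higher and 9.09% lower, against 5.55% and 1.69% of all genes. The others differed less than 2-fold by the probe set that stood for the gene. H2-Aa differed by 0.56 with that probe set and by 1.74 with its other one above the array median. The B cell list summed to 2520 linear array units in CD25pos and 3098 in CD25neg, most of it from Ighm, which was at 11.17 in CD25pos and 11.52 in CD25neg. The 10 myeloid and dendritic cell genes summed to 191 in CD25pos and 129 in CD25neg, with Lyz1 2-fold higher at 6.61 in CD25pos and 5.61 in CD25neg. Tyrobp was at 3.45 in CD25pos and 2.13 in CD25neg, where it lay under the array median, so that its fold is only bounded at 1.31 or more. Lyz1 and Tyrobp, by their measured differences, made 20% of the myeloid and dendritic list, against 5.55% of all genes. The 2 measured erythroid genes were at 5.02 or lower on both arrays. Among 7 plasma cell genes Irf4 and Prdm1, which activated T cells also use, were at least 2-fold higher in CD25pos (28.6%, against 5.55% of all genes). In contrast, Jchain was at 3.47 in CD25pos and 3.81 in CD25neg and Sdc1 at 3.32 in CD25pos and 3.25 in CD25neg.

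The list of CD8 and NK cell genes did move with the comparison. Of its 9 measured genes Cd160, Eomes, Klrk1 and Ccl5 were at least 2-fold higher in CD25pos, which makes 4, or 5 with Tyrobp by its measured difference. Those 5 made 55.6% of the list, against 5.55% of all genes. The list summed to 5186 linear units in CD25pos and 1872 in CD25neg. Cd8b1 was at 4.47 in CD25pos and 5.05 in CD25neg. Klrd1, a chain of NK cell receptors, had a clear signal on both arrays, at 8.91 in CD25pos and 8.88 in CD25neg, against 2.86 in GFPfoxp3. The median difference of this list was 1.32, and 0.39 once values under the array median were raised to it. What part such cells had in the differences of effector and killing genes below was not tested. The 3' minus 5' difference of the Actb control probe sets, a sign of RNA quality, was 3.80 in CD25pos, the highest of the 7 arrays of sorted cells, and 3.29 in CD25neg. That of Gapdh was 6.43 in CD25pos and 6.49 in CD25neg. The part of RNA quality in the differences was not tested.

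Of 11939 genes measured, 663 (5.55%) were at least 2-fold higher in CD25pos than in CD25neg and 202 (1.69%) at least 2-fold lower, which together made 7.25% of the genes. The larger differences lay nearly all on the higher side. At least 4-fold differences were counted for 177 higher genes and 8 lower ones, at least 8-fold differences for 53 and 1, and at least 16-fold differences for 15 and 0. The bulk of genes stayed close, with a median difference of 0.01 on the log2 scale and 9001 genes (75.4%) within 0.5 log2 units of 0. When the arrays were centred on their medians over the measured genes, which moved the median difference of all genes to -0.11, the counts became 550 higher and 317 lower, and 63.4% of the calls were then higher, against 76.6% as deposited. Arrays of cell mixtures cannot tell fewer cells of a type from less RNA per cell.

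**Figure D1:**
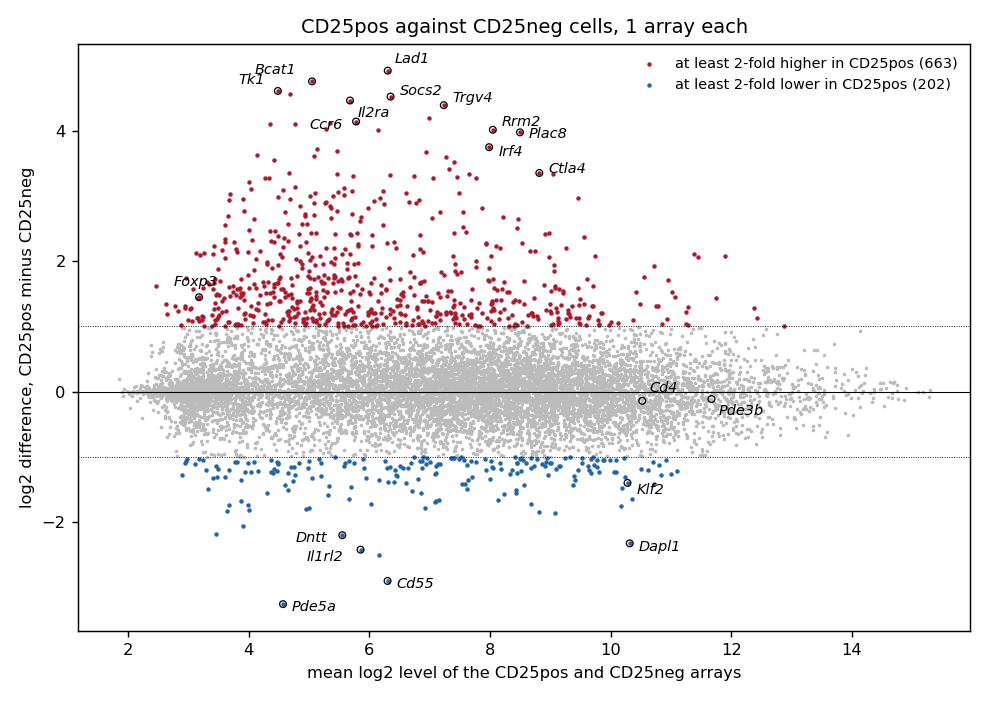
Log2 difference of each measured gene, CD25pos minus CD25neg (vertical axis), against the mean log2 level of the 2 arrays (horizontal axis). Red points are the 663 genes at least 2-fold higher in CD25pos by the measured difference, blue points the 202 at least 2-fold lower, dotted lines mark 2-fold, and circles mark the named genes. The red cloud reaches 4.93 and the blue one only -3.26, while Cd4 and Pde3b lie near 0.

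Among the genes at least 2-fold higher, 270 had a second probe set above the array median, and in 226 of them (83.7%) every such probe set was higher in CD25pos. Among the lower genes 98 had one, and in 76 (77.6%) every such probe set was lower. These probe sets share the array and the RNA, so they describe the reading of a transcript and not its repeatability between mice. In CD25neg 92 of the 663 higher genes (13.9%) lay below the array median. Where a fold is printed for such a gene, it is a lower bound, set against that median. Levels and log2 differences printed without a fold are as measured. With values under an array median raised to it, 634 of the 663 higher genes and 193 of the 202 lower ones still differed at least 2-fold. For scale, CD25pos_IL2 and CD25pos, which are the same population from IL-2-treated and untreated mice, differed at least 2-fold in 161 genes (1.35%).

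The largest differences joined genes of cell division with genes of effector T cells. Lad1, which encodes ladinin, an anchoring protein known from skin basement membrane, was at 8.77 in CD25pos and 3.84 in CD25neg, a difference of 4.93 (30.4-fold). Bcat1, the cytosolic enzyme that starts the breakdown of branched-chain amino acids, was at 7.43 in CD25pos and 2.67 in CD25neg, at least 20.7-fold higher. In CD25neg, Lad1 lay above the array median of 3.06 and Bcat1 below it. Socs2, an inhibitor of cytokine signalling that STAT5 induces, was at 8.62 in CD25pos and 4.09 in CD25neg with 1 probe set and at 8.00 in CD25pos and 4.37 in CD25neg with another, while its dim probe sets differed by 0.22 or less.

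Other leading genes were receptors and signalling proteins. Ffar2, a receptor for short-chain fatty acids, was at 7.30 in CD25pos and 3.27 in CD25neg. Spry1, an inhibitor of receptor signalling through ERK, was at 8.15 in CD25pos and 4.13 in CD25neg. Dusp4, a phosphatase of MAP kinases, was at 7.31 in CD25pos and 3.63 in CD25neg, so that both of these brakes on MAP kinase signalling were higher in CD25pos. Coro2a, an actin-binding coronin, was at 6.99 in CD25pos and 3.27 in CD25neg, and Plac8 was at 10.49 in CD25pos and 6.51 in CD25neg. Ffar2 also separated CD25pos from the Foxp3-holding cells, at 3.45 in GFPfoxp3, whereas Coro2a and Dusp4 were higher there, at 9.62 and 9.30.

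**Figure D2:**
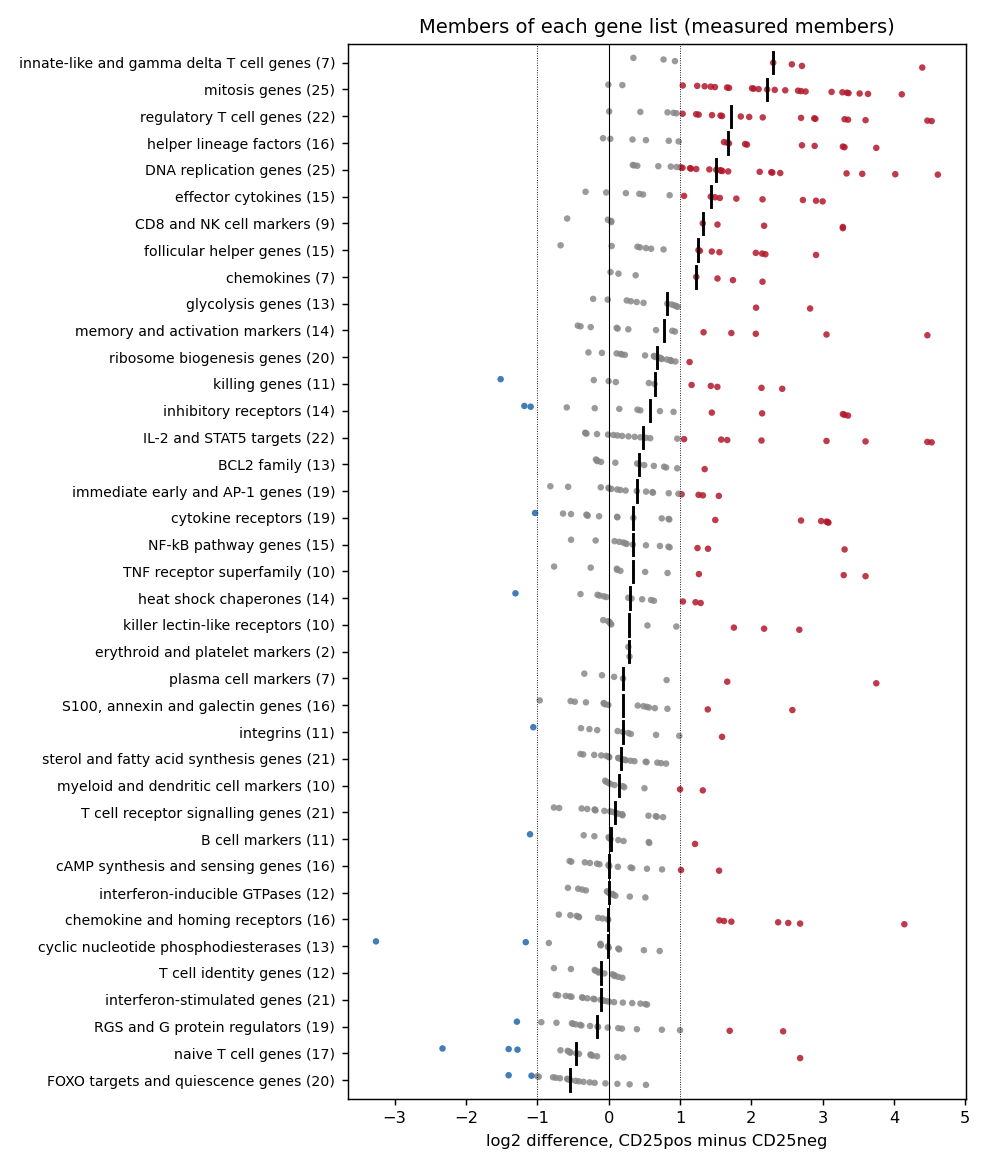
Log2 difference, CD25pos minus CD25neg (horizontal axis), of each measured member of 39 gene lists (1 row a list, number of measured members in brackets), ordered by median, drawn as a black bar. Red points are at least 2-fold higher in CD25pos and blue points at least 2-fold lower. Mitosis genes, with a median of 2.22, lie almost wholly in red, while FOXO targets, with a median of -0.54, sit mostly left of 0.

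Genes of cell division formed the most uniform group. Of 25 measured mitosis genes 23 were at least 2-fold higher in CD25pos (92.0%, against 5.55% of all genes) and none was lower by that much. Their median difference was 2.22, and 1.40 when all probe sets of a gene were averaged. The exceptions were Kif23, a motor of the midzone, at 6.17 in CD25pos and 5.98 in CD25neg, and Ndc80, which ties microtubules to kinetochores, at 5.25 on both arrays. Of 25 DNA replication genes 19 were at least 2-fold higher and none lower, with a median difference of 1.51.

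Mki67, the marker of proliferating cells, was at 9.16 in CD25pos and 5.64 in CD25neg. Nusap1, a protein of the mitotic spindle, was at 6.82 in CD25pos and 2.71 in CD25neg, at least 13.5-fold higher. The cyclins of mitosis followed, with Ccnb2 at 5.96 in CD25pos and 2.33 in CD25neg (at least 7.49-fold) and Ccna2 at 7.14 in CD25pos and 3.80 in CD25neg. Their kinase Cdk1 was at 5.91 in CD25pos and 2.63 in CD25neg, at least 7.22-fold higher. Several of these genes were thus not above background in CD25neg at all. Birc5 (survivin, of the chromosomal passenger complex) was at 7.14 in CD25pos and 4.02 in CD25neg. The spindle checkpoint kinase Bub1b was at 6.35 in CD25pos and 2.99 in CD25neg, at least 9.80-fold higher. Top2a, which untangles chromosomes, was at 8.55 in CD25pos and 5.79 in CD25neg with 1 probe set, and differed by 0.03 with the other.

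In the replication list the largest differences belonged to enzymes that make deoxynucleotides. Tk1, thymidine kinase, was at 6.79 in CD25pos and 2.18 in CD25neg, at least 13.3-fold higher. Rrm2, the regulated subunit of ribonucleotide reductase, was at 10.06 in CD25pos and 6.04 in CD25neg. Loading and firing of origins gave Cdc6 at 6.20 in CD25pos and 2.64 in CD25neg (at least 8.82-fold) and Gins1 at 7.25 in CD25pos and 4.84 in CD25neg. The subunits of the MCM helicase were abundant on both arrays and less apart. Mcm5 was at 12.44 in CD25pos and 10.33 in CD25neg, Mcm3 at 9.97 in CD25pos and 8.47 in CD25neg, and Mcm4 at 10.29 in CD25pos and 9.95 in CD25neg. Pcna, the sliding clamp, differed by only 0.36 at a level of 12.79 in CD25pos. Further leading genes act around replication. Cdca5 (sororin, which holds sister chromatids together) and the clamp-binding Pclaf differed by 4.56 and 4.20. Chek1, the replication checkpoint kinase, and Fignl1, a factor of recombination repair, differed by 4.11 and 4.13. In CD25neg Cdca5 and Chek1 lay under the array median of 3.06, at 2.40 and 2.30, so that their folds are only bounded. Other probe sets above the array median gave smaller differences. These were 2.27 for Cdca5, 2.21 and 0.05 for Pclaf, and 2.82 and 0.73 for Chek1. Fignl1 had no other such probe set.

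**Figure D3:**
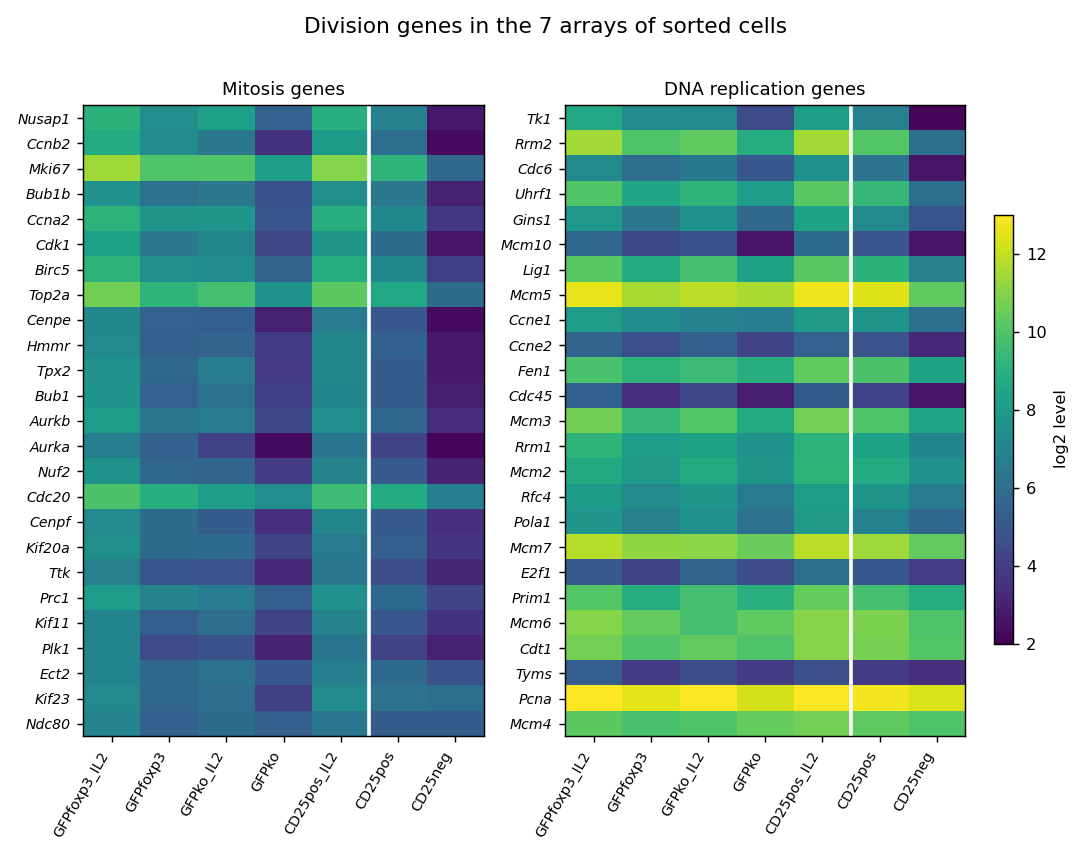
Log2 level (colour) of the 25 measured mitosis genes (left) and 25 DNA replication genes (right) in the 7 arrays of sorted cells that were not transduced, 1 array a column. The white line sets off CD25pos and CD25neg. CD25neg, the rightmost column, is the darkest in most rows, for example in the row of Mki67 with a level of 5.64.

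Set beside the untreated GFP-positive cells, the lists parted. CD25pos read above GFPfoxp3 in 3 of the 25 mitosis genes and above GFPko in 24. In the replication list it read above GFPfoxp3 in 24 of 25 genes and above both in 23. Uhrf1, which carries DNA methylation through replication, was at 9.33 in CD25pos, 8.53 in GFPfoxp3 and 8.03 in GFPko. Mki67 was at 9.16 in CD25pos, 9.95 in GFPfoxp3 and 8.18 in GFPko, and Ccnb2 at 5.96 in CD25pos, 7.33 in GFPfoxp3 and 3.59 in GFPko. In CD25pos_IL2 Mki67 and Ccnb2 were at 10.95 and 7.98. Set against the same CD25neg array, the mitosis list had a median difference of 4.06 in CD25pos_IL2 and 2.22 in CD25pos.

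Promoters of division genes carry shared short motifs, and those of 4 genes are shown because they differed strongly and hold such motifs in the bases shown. The sequences are the 200 bases before the start of transcription on the gene's strand, from RefSeq on GRCm38.p6. For Ccnb2 (chr9:70421555-70421754, minus strand), Cdk1 (chr10:69352913-69353112, minus strand) and Mki67 (chr7:135716380-135716579, minus strand) capitals mark TTTGAA, the core of the cell cycle homology region, and CCAAT, the box of the factor NF-Y, or their reverse complements. In Ccnb2 the TTTGAA match lies farther from the start than the CCAAT matches. For Mcm5 (chr8:75109309-75109508, plus strand) capitals mark 2 overlapping matches, 1 on each strand, to the E2F motif, searched as TTTGGCGC or TTTCGCGC.
Ccnb2: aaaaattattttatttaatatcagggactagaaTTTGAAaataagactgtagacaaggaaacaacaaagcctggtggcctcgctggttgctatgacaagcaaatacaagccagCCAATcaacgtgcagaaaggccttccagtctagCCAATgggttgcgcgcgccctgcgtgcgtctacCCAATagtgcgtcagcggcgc
Cdk1: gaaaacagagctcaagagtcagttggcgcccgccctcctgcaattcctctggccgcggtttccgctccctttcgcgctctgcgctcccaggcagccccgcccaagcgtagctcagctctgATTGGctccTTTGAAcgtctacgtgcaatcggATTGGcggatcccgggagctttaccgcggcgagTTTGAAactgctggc
Mki67: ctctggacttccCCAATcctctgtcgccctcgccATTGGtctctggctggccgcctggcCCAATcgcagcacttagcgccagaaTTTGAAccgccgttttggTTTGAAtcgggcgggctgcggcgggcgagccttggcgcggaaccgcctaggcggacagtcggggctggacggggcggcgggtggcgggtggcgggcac
Mcm5: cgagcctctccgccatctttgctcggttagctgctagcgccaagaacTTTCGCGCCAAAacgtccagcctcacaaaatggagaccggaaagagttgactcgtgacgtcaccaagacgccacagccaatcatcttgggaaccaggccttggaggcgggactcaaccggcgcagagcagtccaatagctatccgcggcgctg

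In the 250 bases before the start, searched on both strands, TTTGAA was present in 9 of 23 windows of the mitosis list (39.1%), against 11.1% of 12306 windows of all measured genes. CCAAT was present in 19 of the 23 (82.6%), against 35.2%, and at least 2 copies of it in 12 (52.2%), against 12.6%. The E2F motif was present in 4 of 27 windows of the replication list (14.8%), against 1.27%. Over all 663 higher genes the shares were 12.2% for TTTGAA, 38.2% for CCAAT and 2.48% for E2F. A match is a run of letters and not an occupied site.

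Factors that set helper T cell lineages were higher in CD25pos as a group. Of 16 measured helper lineage factors 10 were at least 2-fold higher and none lower (62.5%, against 5.55% of all genes), with a median difference of 1.67. Irf4, which activated T cells need to expand and differentiate, was at 9.86 in CD25pos and 6.11 in CD25neg. Ahr, the aryl hydrocarbon receptor, was at 8.39 in CD25pos and 5.08 in CD25neg. Eomes and Tbx21 (T-bet), T-box factors of interferon-gamma-producing cells, were at 9.41 and 10.04 in CD25pos, against 6.13 and 8.10 in CD25neg. Both read lower in the GFP-positive cells, Eomes at 4.03 in GFPfoxp3 and 3.84 in GFPko. Tbx21 was at 6.37 in GFPfoxp3 and 5.27 in GFPko, and so kept a signal above the array median there. Of the 16 factors CD25pos read above GFPfoxp3 in 9 and above GFPko in 13. Ahr, for example, was higher in GFPfoxp3, at 9.27. Maf, a factor of Il4, Il10 and Il21 expression, was at 10.52 in CD25pos and 8.91 in CD25neg, with a difference of up to 3.28 in its other probe sets. Prdm1 (Blimp-1) was at 7.68 in CD25pos and 6.01 in CD25neg, Rora at 8.72 in CD25pos and 6.81 in CD25neg, and Bhlhe40 at 8.21 in CD25pos and 5.33 in CD25neg. Gata3, the factor of type 2 cells, was level at a difference of -0.08, and Stat4, which relays IL-12, at 0.02.

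The cytokine genes covered several helper types at once. Of 15 measured effector cytokines 9 were at least 2-fold higher in CD25pos and none lower, against 5.55% and 1.69% of all genes, with a median difference of 1.43, or 0.96 when dim genes were also counted. Il4, of type 2 cells, was at 6.90 in CD25pos and 3.90 in CD25neg. Il21, of follicular helper cells, was at 8.12 in CD25pos and 5.21 in CD25neg. Il2 itself was at 7.08 in CD25pos and 4.36 in CD25neg, and Ifng, of type 1 cells, at 8.14 in CD25pos and 6.35 in CD25neg. Il2 and Ifng read lower in the Foxp3-holding cells, at 2.56 and 4.92 in GFPfoxp3. Il10 was at 4.23 in CD25pos and 2.74 in CD25neg, at least 2.25-fold higher, and Tnfsf11 (RANKL) differed by 1.56. Il17a, of type 17 cells, was at 3.63 in CD25pos and 3.20 in CD25neg, close to the array median on both arrays. Among 7 chemokines 4 were at least 2-fold higher by the measured difference, or 3 without Ccl1, whose bound was 1.71, with a median difference of 1.23 that became 0.26 when dim genes were counted. Ccl5 was the brightest of them, at 11.79 in CD25pos and 10.26 in CD25neg, and Xcl1 was at 5.27 in CD25pos and 3.11 in CD25neg.

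**Figure D4:**
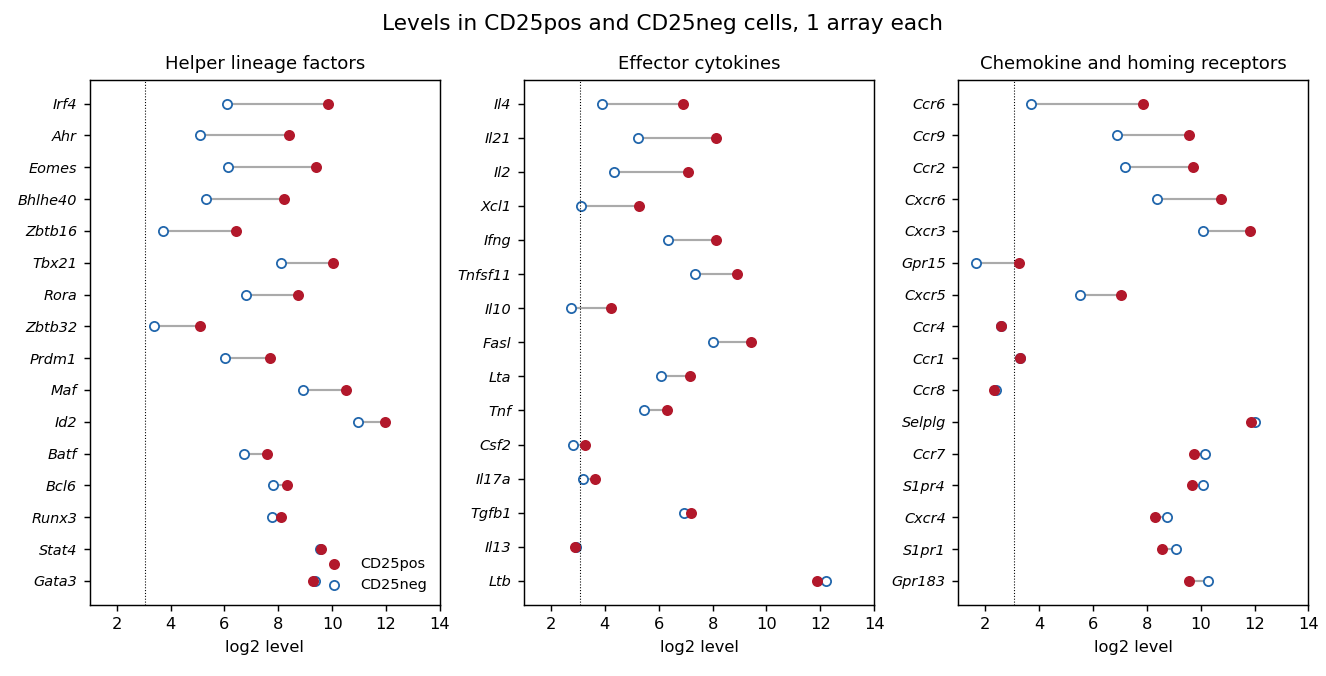
Log2 level (horizontal axis) in CD25pos (filled red) and CD25neg (open blue) of helper lineage factors, effector cytokines and chemokine and homing receptors, 1 array each. The dotted line marks the CD25neg array median of 3.06. Red points lie right of blue ones for the upper rows of each panel, down to pairs that coincide, such as Gata3 with a difference of -0.08.

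Receptors that guide cells to tissue parted within their family. Of 16 measured chemokine and homing receptors 7 were at least 2-fold higher in CD25pos by the measured difference, or 6 without Gpr15, whose bound was 1.16, and none was lower. The 7 made 43.75% of the list, against 5.55% of all genes. The median was -0.01 because the remaining members were level or slightly lower. A filter on the mean over the arrays, which left 14 of them, gave a median of 0.77. Ccr6, the receptor for CCL20, was at 7.85 in CD25pos and 3.71 in CD25neg, a 17.7-fold difference. Ccr2 and Cxcr6, receptors of inflamed tissue and liver, were at 9.70 and 10.75 in CD25pos, against 7.19 and 8.38 in CD25neg. Cxcr3, which T-bet induces, was at 11.82 in CD25pos and 10.10 in CD25neg, and Ccr9, the receptor for gut homing, at 9.57 in CD25pos and 6.88 in CD25neg. The receptors of lymph node entry and exit went slightly the other way, with Ccr7 at 9.75 in CD25pos and 10.17 in CD25neg and S1pr1 at 8.54 in CD25pos and 9.08 in CD25neg. Of 11 integrins Itgae, which binds E-cadherin, differed by 1.59 and Itga6, a laminin receptor chain, by -1.06.

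Memory and activation markers, follicular helper genes and cytokine receptors each had more 2-fold higher than 2-fold lower members. These lists share members with each other and with other lists, so their counts are not separate results. Icos, for example, is in the memory and follicular lists, and Il2rb in the memory and cytokine receptor lists. Il21 is also an effector cytokine and Cxcr5 also a homing receptor. Of 14 memory and activation markers 5 were at least 2-fold higher (35.7%, against 5.55% of all genes) and none lower, with a median of 0.78. Without Il2ra, the gene of the sort, 4 of 13 were higher, with a median of 0.66. Il2rb, the beta chain of the IL-2 receptor, was at 9.02 in CD25pos and 5.97 in CD25neg, and Icos, a costimulatory receptor, at 12.48 in CD25pos and 10.41 in CD25neg. Cd44, whose high surface level marks memory cells, differed by 0.89. The 3 markers below 0 were Cd69, an early activation marker, at 9.69 in CD25pos and 10.12 in CD25neg, Cd48 and Fas. Cd48 differed by -0.39 and Fas by -0.25. Of 15 follicular helper genes 8 were at least 2-fold higher (53.3%), with a median of 1.26. Pou2af1, a coactivator of octamer factors, was at 9.27 in CD25pos and 7.07 in CD25neg, and Cxcr5, the receptor for B cell follicles, at 7.06 in CD25pos and 5.50 in CD25neg. Bcl6, the factor that sets this lineage, differed by 0.52. Of 19 cytokine receptors 6 were at least 2-fold higher (31.6%) and 1 lower (5.26%, against 1.69% of all genes). The lower one was Il6ra, at 9.16 in CD25pos and 10.19 in CD25neg. Il12rb1 was at 7.02 in CD25pos and 3.95 in CD25neg, Il18rap at 7.66 in CD25pos and 4.68 in CD25neg, and Il17rb, a chain of the IL-25 receptor, at 7.78 in CD25pos and 4.70 in CD25neg.

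Killing genes were split. Of 11 measured, 5 were at least 2-fold higher and 1 lower in CD25pos, with a median of 0.64 (45.5% higher and 9.09% lower, against 5.55% and 1.69% of all genes). Nkg7, a protein of cytotoxic granules, was at 10.19 in CD25pos and 7.76 in CD25neg, and Gzmb, granzyme B, at 5.06 in CD25pos and 2.92 in CD25neg, at least 4.01-fold higher. Gzma, granzyme A, was the lower one, at 3.90 in CD25pos and 5.41 in CD25neg, but at 6.11 in CD25pos_IL2. Prf1, perforin, was at 5.95 in CD25pos and 6.16 in CD25neg. Fasl was at 9.44 in CD25pos and 8.01 in CD25neg with its brighter probe set, and differed by -0.69 with the dimmer. Of 10 killer lectin-like receptors 3 were at least 2-fold higher (Klrb1f, Klrk1 and Klrc1), with Klrc1, which pairs with Klrd1, at 6.31 in CD25pos and 4.56 in CD25neg. The median of that family was 0.29.

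Most genes typical of regulatory T cells were higher in CD25pos. Of 22 measured, 17 were 2-fold higher by the measured difference and none lower (77.3%, against 5.55% of all genes), with a median of 1.72. These counts hold Il2ra, the gene of the sort, without which 16 of 21 were higher with a median of 1.59. They also hold Foxp3 itself, whose bound was 1.8-fold, and without both genes 15 were at least 2-fold higher. Ctla4, the inhibitory receptor that competes for CD80 and CD86, was at 10.50 in CD25pos and 7.14 in CD25neg. Tnfrsf4 (OX40) was at 9.08 in CD25pos and 5.48 in CD25neg, and Cd83 at 7.39 in CD25pos and 4.08 in CD25neg. Ikzf2 (Helios), a transcription factor of regulatory cells, was at 9.83 in CD25pos and 7.67 in CD25neg, Ebi3, a chain of IL-35 and IL-27, at 6.54 in CD25pos and 3.64 in CD25neg, and Gpr83 at 8.34 in CD25pos and 6.49 in CD25neg. All 22 were higher still in the Foxp3-holding cells, such as Ctla4 at 13.63, Ikzf2 at 12.43 and Gpr83 at 11.99 in GFPfoxp3. The list was drawn up for that lineage, so this order is no independent result. In the list Itgae stood at 5.82 in CD25pos, 4.23 in CD25neg and 11.28 in GFPfoxp3, and Gbp2b at background in CD25pos and CD25neg and at 9.17 in GFPfoxp3. The share of Foxp3-holding cells among sorted CD25pos cells was not tested.

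**Figure D5:**
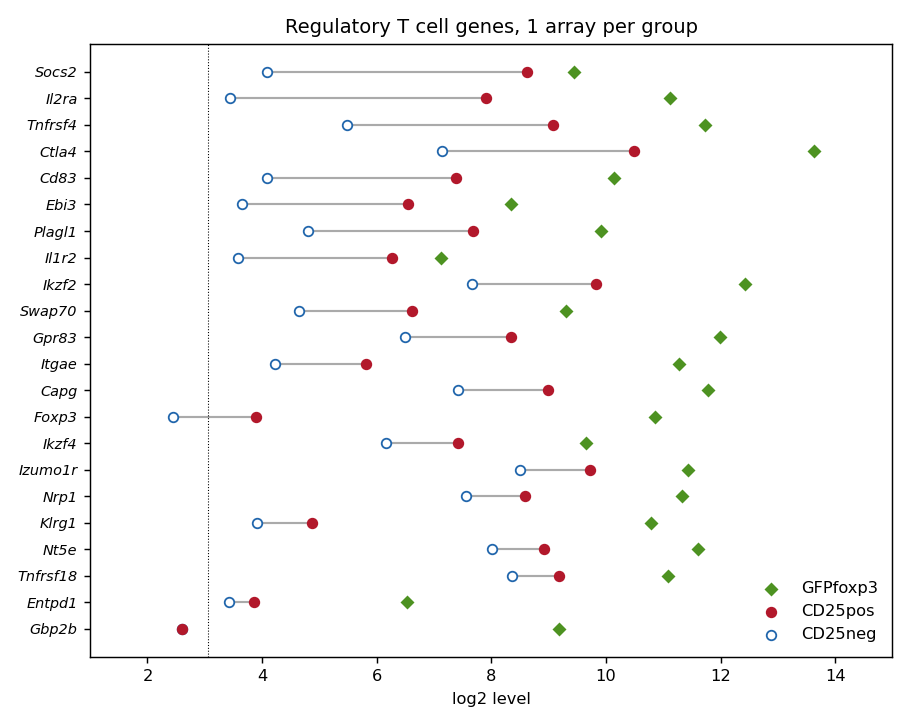
Log2 level (horizontal axis) of the 22 measured regulatory T cell genes in GFPfoxp3 (green diamonds), CD25pos (filled red) and CD25neg (open blue), 1 array each, with the CD25neg array median of 3.06 dotted. CD25pos lies between CD25neg and GFPfoxp3 in each of the 22 rows, for example Ctla4 with 10.50 in CD25pos between 7.14 and 13.63, whereas Foxp3 reaches only 3.90 in CD25pos.

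Neighbouring receptor families gave smaller groups. Of 10 members of the TNF receptor superfamily 3 were at least 2-fold higher (30%, against 5.55% of all genes) and none lower, with a median of 0.34. Tnfrsf9 (4-1BB) was at 9.11 in CD25pos and 5.81 in CD25neg and Tnfrsf1b at 8.86 in CD25pos and 7.59 in CD25neg, whereas Tnfrsf18 (GITR) differed by 0.83 and Cd27 by -0.77. Of 14 inhibitory receptors 5 were at least 2-fold higher (35.7%) and 2 lower (14.3%, against 1.69% of all genes), with a median of 0.58. Cd160 was at 8.69 in CD25pos and 5.41 in CD25neg, Pdcd1 (PD-1) at 7.90 in CD25pos and 6.45 in CD25neg, and Cd200 at 9.74 in CD25pos and 7.59 in CD25neg. Cd244a and Lair1 were the lower ones, at 2.89 and 4.66 in CD25pos, against 4.08 and 5.75 in CD25neg. In CD25pos Cd244a lay under the array median, so that its fold is only bounded at 2.00 or more.

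IL-2 and STAT5 targets were higher only in part. Of 22 measured, 8 were at least 2-fold higher (36.4%, against 5.55% of all genes) and none lower, with a median of 0.48. Without Il2ra 7 of 21 were higher, with a median of 0.44. Besides Socs2 and the receptor chains these included Cish, a feedback inhibitor, at 8.50 in CD25pos and 6.92 in CD25neg, and Lta at 7.14 in CD25pos and 6.09 in CD25neg. Bcl2, Pim1, Myc and Ccnd2 differed by -0.16, 0.44, 0.58 and 0.19. After IL-2 the CD25pos_IL2 array read Cish at 9.56 and Gzmb at 7.33, while Il2ra stayed at 7.90.

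A group of genes of innate-like and gamma delta T cells stood out by size. Of 7 measured, 4 were at least 2-fold higher in CD25pos (57.1%, against 5.55% of all genes) and none lower. Their median of 2.31 became 0.93 when the dim members were counted and 1.01 without probe sets marked for possible cross-matching. Trgv4, a variable segment of the T cell receptor gamma chain, was at 9.43 in CD25pos and 5.04 in CD25neg with 1 probe set and at 8.43 in CD25pos and 4.41 in CD25neg with another, while the remaining one was dim on both arrays. Trgv1, which was not in the list, was at 8.78 in CD25pos and 5.10 in CD25neg. Gamma chain segments are near copies of each other and these probe sets may not tell them apart. Zbtb16 (PLZF), the factor of invariant NKT and other innate-like T cells, was at 6.44 in CD25pos and 3.73 in CD25neg, and at 6.47 in CD25pos and 2.24 in CD25neg with a second probe set, against 2.50 in GFPfoxp3. The scavenger receptor genes Cd163l1 and 5830411N06Rik, known from gamma delta T cells in mice, were at 5.52 and 6.25 in CD25pos, against 3.22 and 3.68 in CD25neg. Part of this group was also high in GFPko, with Trgv4, Cd163l1 and 5830411N06Rik at 8.48, 5.26 and 6.70 there. Trgv1 and Zbtb16 were lower in GFPko than in CD25pos, at 5.11 and 2.56. In the IL-2-treated counterpart of GFPko Zbtb16 was likewise low at 2.59, but Trgv1 was at 8.10. Sox13 and Blk, used by gamma delta T cells that make IL-17, were below the median on all arrays. What share of sorted cells were such cells was not tested.

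Genes lower in CD25pos were fewer and included markers of naive and resting cells. Of 17 naive T cell genes 3 were at least 2-fold lower and 1 higher, against 1.69% of all genes lower, with a median of -0.46, and 14 of 17 lay below 0. Dapl1 was at 9.15 in CD25pos and 11.48 in CD25neg, Klf2, which keeps T cells quiescent and circulating, at 9.58 in CD25pos and 10.98 in CD25neg, and Lef1, a factor of the Wnt pathway, at 10.19 in CD25pos and 11.47 in CD25neg. Ccr9 was the higher member. The receptor of the survival cytokine IL-7 did not share this direction, with Il7r at 13.07 in CD25pos and 12.95 in CD25neg. Of 20 FOXO targets and quiescence genes 2 were at least 2-fold lower and none higher, with a median of -0.54, and 17 of 20 lay below 0. Tsc22d3 (GILZ), which glucocorticoids induce, was at 10.17 in CD25pos and 11.25 in CD25neg. Cdkn1b, the cell cycle inhibitor p27, differed by -0.98, with another probe set at 1.24 the other way.

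The lower gene with the largest difference was Pde5a, a phosphodiesterase specific for cGMP. It was at 2.94 in CD25pos and 6.20 in CD25neg, and at 3.08 in CD25pos and 6.99 in CD25neg with a second probe set, so that its level in CD25pos was not above background and at least 8.74-fold lower. Its remaining probe set was dim on both arrays. CD25neg was the one array of sorted cells with a clear signal, since Pde5a was at 2.92 in CD25pos_IL2, 2.84 in GFPfoxp3 and 2.96 in GFPko. Of 13 phosphodiesterases 2 were at least 2-fold lower (15.4%, against 1.69% of all genes) and none higher, with a median of -0.01. Pde4b, which degrades cAMP, was at 9.20 in CD25pos and 10.36 in CD25neg. Its other bright probe sets differed by -0.91 and -0.49, under 2-fold, and its dim ones by between -1.01 and 0.12. Pde3b was level at 11.62 in CD25pos and 11.73 in CD25neg. Of 16 genes of cAMP synthesis and sensing 2 were at least 2-fold higher (12.5%, against 5.55% of all genes), with a list median of 0.01. They were the prostaglandin E receptors Ptger2, at 8.07 in CD25pos and 6.53 in CD25neg, and Ptger4, at 11.80 in CD25pos and 10.78 in CD25neg. Of 19 regulators of G protein signalling Rgs1 and Rgs16 were at least 2-fold higher (10.5%), with differences of 2.45 and 1.70, and Rgs2 lower (5.26%), with -1.29.

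Other large decreases concerned surface and processing genes. Cd55, which protects cells from complement, was at 4.85 in CD25pos and 7.76 in CD25neg, and its 3 probe sets gave differences between -2.91 and -1.44. Il1rl2, a chain of the IL-36 receptor, was at 4.64 in CD25pos and 7.07 in CD25neg. Dntt, the enzyme of thymocytes that adds nucleotides to antigen receptor joints, was at 4.45 in CD25pos and 6.66 in CD25neg, and lay at background in GFPfoxp3 with 2.94. App, the amyloid precursor protein, was at 6.02 in CD25pos and 7.81 in CD25neg, and at 2.50 in GFPfoxp3. H2-Ob, a chain of the modulator of peptide loading H2-O, was at 7.89 in CD25pos and 9.74 in CD25neg, and Trat1, an adaptor that binds the T cell receptor complex, at 9.53 in CD25pos and 11.19 in CD25neg. Calcrl, the receptor of calcitonin gene-related peptide, Cers6, a ceramide synthase, and Tent5a, a poly(A) polymerase, had differences of -1.87, -1.69 and -1.73. Ntmt1, also among the leading decreases at -1.66, had a second probe set at 1.00 in the other direction.

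Growth metabolism differed more evenly and less. Of 20 ribosome biogenesis genes only Nolc1 was at least 2-fold higher (5%, against 5.55% of all genes), at 10.04 in CD25pos and 8.91 in CD25neg. Yet 18 of 20 lay above 0, with a median of 0.68. Ncl (nucleolin) was at 12.96 in CD25pos and 12.09 in CD25neg and Nop56 at 11.04 in CD25pos and 10.30 in CD25neg. Of 13 glycolysis genes 2 were at least 2-fold higher (15.4%) and 11 lay above 0, with a median of 0.82. Hk2, the inducible hexokinase, was at 6.78 in CD25pos and 3.96 in CD25neg, and Tpi1 at 10.01 in CD25pos and 7.94 in CD25neg, whereas the glucose transporter Slc2a1 was at 8.65 in CD25pos and 8.87 in CD25neg. Gapdh, often used as a constant gene, was at 13.06 in CD25pos and 12.09 in CD25neg. None of 21 sterol and fatty acid synthesis genes differed 2-fold by the probe set that stood for it, against 7.25% of all genes. For 21 such genes a count of 0 lies close to that share. Their median was 0.17, with Fasn, fatty acid synthase, at 8.93 in CD25pos and 8.24 in CD25neg. Elovl6 differed by 0.73, and by up to 1.27 in its other probe sets. Of 14 heat shock chaperones 3 were at least 2-fold higher (21.4%) and 1 lower (7.14%, against 1.69% of all genes), with a median of 0.30. The higher ones were led by Hspd1, the mitochondrial chaperonin, at 13.03 in CD25pos and 11.74 in CD25neg. The lower one was Hspa1b, at 7.05 in CD25pos and 8.36 in CD25neg.

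Signalling groups downstream of activation showed small or mixed differences. None of 21 genes of T cell receptor signalling differed 2-fold, against 7.25% of all genes, with a range of -0.77 to 0.76 and a median of 0.08. A count of 0 in 21 genes lies close to that share of all genes. Of 19 immediate early and AP-1 genes 4 were at least 2-fold higher (21.1%, against 5.55% of all genes), with a median of 0.39. Among them were the phosphatases Dusp1, at 9.79 in CD25pos and 8.25 in CD25neg, and Dusp2, at 11.45 in CD25pos and 10.13 in CD25neg. Fos, the AP-1 subunit, differed by 0.98 and Fosl2 by -0.82. Of 15 genes of the NF-kB pathway 3, or 20%, were at least 2-fold higher (Cd83, Icam1 and Nfkb2), with a median of 0.34. In the BCL2 family Bcl2l11 (BIM), which promotes cell death, was the one gene of 13 at least 2-fold higher (7.69%), at 11.16 in CD25pos and 9.82 in CD25neg. Bcl2l1 (BCL-XL), which opposes it, differed by 0.96. Of 16 S100, annexin and galectin genes Lgals3 (galectin 3) and Anxa2 were at least 2-fold higher (12.5%), with differences of 2.57 and 1.39, and Vim (vimentin) differed by -0.97.

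Interferon response genes gave no 2-fold difference in either direction, where 7.25% of all genes did. In lists of 21 and 12 genes a count of 0 lies close to that share. The 21 measured interferon-stimulated genes ranged from -0.74 for Rtp4 to 0.54 for Oas3, with a median of -0.11. The 12 interferon-inducible GTPases ranged between -0.57 for Irgm2 and 0.51 for Gbp3, with a median of 0.00. The higher level of Ifng in CD25pos thus stood beside level amounts of these genes, for example Igtp at 11.70 in CD25pos and 12.02 in CD25neg and Iigp1 at 9.28 in CD25pos and 9.29 in CD25neg.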

How the data were processed

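RNA of sorted cells was extracted with Stat-60 and made into biotinylated cRNA in 2 rounds of amplification, per the labels' protocols, and hybridised to Affymetrix mouse arrays. Repeated amplification from the 3' end yields short products, which favours probe sets near that end. The authors deposited log2 values of 45101 probe sets and normalized the 10 arrays together, per the series' design text. Their background correction and probe summary: not given in the sources used here.

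Names came from the platform annotation, with symbols updated to GRCm38.p6, which gave 34958 probe sets 1 gene and 932 more than 1, and left 9211 unnamed. A probe set with 1 gene entered if it reached the array median on 1 or more arrays. The brightest such probe set, by its mean over all 10 arrays, stood for the gene, which left 11939 of 18194 genes. A 2-fold difference counted as a call, and no test was run. Where the lower value lay under its array median, a lower bound of the fold ("at least") was taken from the brighter value against that median. List medians use the printed differences. Some genes are in several lists and were counted in each.

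The named genes were the 20 largest increases and decreases among genes whose brighter value lay 2 or more log2 units over that array's median, the 6 most different members of each of 39 lists at most, and Foxp3, Il2ra, Cd4, Pde3b and Tnfrsf18. Further members of a list are given with their family, chosen after their values were seen. The members and lists were chosen with earlier results of these data known. List members without a probe set of their own were not analysed here. Alternatives were quantile normalization, centring, other treatments of dim genes (no filter, a filter on the mean, values raised to the array median), other choices of probe set, a lowess curve, a 3-fold threshold, and the IL-2-treated CD25pos array. Counting was tested on simulated data. Python 3.11.15, pandas 2.3.3 and statsmodels 0.14.6 were used.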

Additional observations from a re-analysis of the deposited data

How the results depend on the processing

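A 3-fold threshold left 278 genes higher and 28 lower in CD25pos, against 663 and 202 at 2-fold. Centring each array on its median over the measured genes gave 317 lower genes and 550 higher ones, and kept all 202 lower genes. Under the other alternatives the counts ranged between 547 and 662 higher and between 148 and 250 lower. Quantile normalization gave 588 and 250, with 70.2% of calls higher, against 76.6% as deposited. Counting each named gene once per alternative, 2211 values kept their side of 2-fold, 52 no longer reached it and 21 newly did. A change of sign between values under 2-fold was not counted as a turn. By that count 1 value turned: Gzma was at 0.70 with the IL-2-treated CD25pos array, against -1.51 with the untreated one. Of the list medians, counted likewise, 356 moved by less than 0.25 log2 units and 36 by more. The 356 include the 3 lists without Il2ra, an alternative chosen after seeing the data. The median of the erythroid and platelet markers became -0.00568 when dim genes were counted, against 0.28. In each turned value the cause was not tested. No paired analysis was possible because each group has 1 array. For the same reason the spread between mice is unknown, and precision is limited by having so few arrays.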

Other observations

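Probe sets that the annotation pairs with no gene showed less difference than named genes and a near even split of direction. Of 4355 such probe sets above the array median on at least 1 array, 91 were at least 2-fold higher in CD25pos and 98 at least 2-fold lower, together 4.34%, against 7.25% of genes.

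Gene families were also grouped by the stem of their symbols, which was done after the values were seen. Among the 146 stems with at least 10 measured genes, the Mrpl family, which encodes proteins of the large subunit of the mitochondrial ribosome, held 47 genes with a median difference of 0.41. Of these 42 lay above 0, and 2 were at least 2-fold higher, no larger a share than the 5.55% of all genes. The Mrps family of the small subunit held 29 genes with a median of 0.27, and 25 lay above 0. Translation initiation genes (Eif) numbered 46, with a median of 0.23 and 36 above 0, and none differed 2-fold, against 7.25% of all genes. The Timm family, which brings proteins into mitochondria, had a median of 0.62 over 15 genes, and the Psmd family of proteasome subunits 0.47 over 14. In the Zbtb family of zinc finger factors, by contrast, 9 of 36 genes lay above 0 and the median was -0.19. The Klhl family of ubiquitin ligase adaptors had 4 of 25 above 0 and a median of -0.21. For comparison, the median of all genes was 0.01 as deposited, and -0.11 after centring.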
